A study of Homo sapiens with 36 samples.

Results

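The sites described here are distal regions of the A549 genome occupied by all 3 Jun-family subunits of AP-1, with no Jun-family peak nearby in B2B cells. They were found by merging the JunB, Jun and JunD peaks of A549 into 43834 regions, of which 6673 carried all 3 proteins. Of these, 4135 lay more than 1 kb from every annotated transcription start site. No JunB, Jun or JunD peak of B2B lay within 1 kb of 939 of them, and 923 remained once bins of 1 Mb without a start site were left out. These 923 A549-only trio sites were 2.11% of all Jun-family regions of A549. They were chosen by the presence and absence of called Jun-family peaks in these same lists, so their Jun-family values are given as a description. They were compared mainly with the 3152 distal trio sites of A549 that did have a B2B Jun-family peak within 1 kb (shared trio sites). The 12943 distal A549-only regions with 1 or 2 of the proteins and the 758 B2B-only trio sites, found by the same rule with the lines exchanged, served as further comparisons.

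The peaks came from chromatin immunoprecipitation followed by sequencing (ChIP-seq), in which an antibody enriches the DNA bound by a protein or wrapped around a modified histone. A549 is a line of lung adenocarcinoma cells, and B2B (BEAS-2B) is an immortalized line of non-cancerous bronchial epithelial cells, so the comparison is between 2 established lines that differ in more than cancer, and neither was treated in the samples used here. In all, 36 samples were labelled as 2 replicates in each of 18 groups, and 4 of the samples were input chromatin. Each of the 16 peak lists pooled the 2 replicates of its group, so every count below has no replicate error, and the 95% intervals cover counting error only.

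AP-1 is a dimer of basic leucine zipper proteins of the Jun and Fos families, and JunB, Jun (c-Jun) and JunD are its Jun subunits. It binds the TPA response element, and it is a target of growth factor and stress signalling through the MAP kinases. In many cell types most of its sites lie away from promoters, often in enhancers that hold motifs of the transcription factors that define the cell type.

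To show where the AP-1 binding sequence stands in a site, 4 sites chosen for holding it are printed. They are among the 6 sites whose weakest of the 3 proteins was most enriched among those that held TGACTCA or TGAGTCA within 50 bp of the Jun summit. Each line gives the nearest protein-coding gene, the hg38 coordinates and the 101 bases centred on the Jun summit, read from the hg38 reference on the + strand. Capitals mark AP-1 words and forkhead words, which are TGTTTAC and TGTTTGC or their reverse complements GTAAACA and GCAAACA.
SEMA3D, chr7:85720737-85720837, + strand: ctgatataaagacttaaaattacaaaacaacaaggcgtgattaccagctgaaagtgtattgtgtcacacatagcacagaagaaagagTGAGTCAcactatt
DSCAM, chr21:40508145-40508245, + strand: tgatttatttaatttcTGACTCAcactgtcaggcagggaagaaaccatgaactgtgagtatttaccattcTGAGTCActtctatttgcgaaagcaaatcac
PDE4D, chr5:59756465-59756565, + strand: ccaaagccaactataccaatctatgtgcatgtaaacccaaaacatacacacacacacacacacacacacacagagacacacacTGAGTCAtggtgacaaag
ATP10A, chr15:25850607-25850707, + strand: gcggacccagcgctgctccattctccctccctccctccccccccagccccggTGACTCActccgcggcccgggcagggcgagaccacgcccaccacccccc

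Fold enrichment is the ratio of the pileup at the peak summit to the local background of the peak caller. The sites in DSCAM, PDE4D and ATP10A were intronic. The site labelled SEMA3D lay between genes, 533.7 kb from the start of that gene. PDE4D encodes a cyclic AMP phosphodiesterase, and at its site Jun reached 58.2, JunB 36.6 and JunD 14.3. The DSCAM window held the AP-1 word 2 times and each of the other 3 held it 1 time. The word lay 5 bp from the summit in the ATP10A window, but 40 bp in SEMA3D and 36 bp in PDE4D. The median over all A549-only sites with the word was 13 bp.

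Sites that held an AP-1 word and a forkhead word within 50 bp of the same summit are shown next, since forkhead words were more frequent at A549-only than at shared sites. These are the 4 with the highest weakest-protein fold enrichment, chosen after the values were seen. The site labelled CRYBA4 lay 122.6 kb from the start of that gene.
ADAMTS16, chr5:5136094-5136194, + strand: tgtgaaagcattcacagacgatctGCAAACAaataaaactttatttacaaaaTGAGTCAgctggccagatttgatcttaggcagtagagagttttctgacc
UMAD1, chr7:7799266-7799366, + strand: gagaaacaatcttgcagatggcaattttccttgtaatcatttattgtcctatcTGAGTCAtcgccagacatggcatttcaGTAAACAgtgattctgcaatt
CRYBA4, chr22:26744564-26744664, + strand: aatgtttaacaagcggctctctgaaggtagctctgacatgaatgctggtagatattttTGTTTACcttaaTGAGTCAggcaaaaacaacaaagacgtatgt
GUCA1B, chr6:42204413-42204513, + strand: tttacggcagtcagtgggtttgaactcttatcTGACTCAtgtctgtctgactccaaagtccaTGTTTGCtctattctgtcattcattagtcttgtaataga

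Another set consists of the 3 sites with the highest Jun fold enrichment and neither an AP-1 word nor the cAMP response element TGACGTCA within 100 bp of the Jun summit.
DNAJC3, chr13:95714554-95714654, + strand: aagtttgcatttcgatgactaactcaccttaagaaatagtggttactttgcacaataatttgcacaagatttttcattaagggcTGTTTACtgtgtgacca
GPR141, chr7:37666553-37666653, + strand: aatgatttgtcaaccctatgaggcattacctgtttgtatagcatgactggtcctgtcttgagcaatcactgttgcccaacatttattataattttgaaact
CEACAM18, chr19:51475232-51475332, + strand: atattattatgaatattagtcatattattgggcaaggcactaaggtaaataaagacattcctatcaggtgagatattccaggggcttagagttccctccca

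The site in the intron of DNAJC3 had the highest Jun fold enrichment of all 923 sites, 94.2, with 33.2 for JunB and 19.7 for JunD. It held a forkhead word in the window above. Jun fold enrichment was 80.6 at the site 17.2 kb from the start of GPR141 and 75.3 at the site 3.26 kb from the start of CEACAM18. All 3 proteins have a peak at these sites by the rule that chose them.

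At the A549-only trio sites Jun had the highest median fold enrichment and JunD the lowest. Each protein had its own antibody and libraries, so this order does not rank the amounts bound. The median fold enrichment in A549 was 11.6 for JunB (quartiles 7.96 and 16.4), 25.04 for Jun (16.4 and 36.1), and 6.08 for JunD (5.07 and 7.56). The order Jun, JunB, JunD held at 733 of the 923 sites and at 2827 of the 3152 shared trio sites. At the shared trio sites the medians were 16.1, 32.3 and 6.69. Across the 923 sites the fold enrichments of Jun and JunD were the most closely related (Pearson's r of log2 values 0.67), ahead of JunB and JunD (0.48) and Jun and JunB (0.47). The sites share the same pooled libraries.

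**Figure D1:**
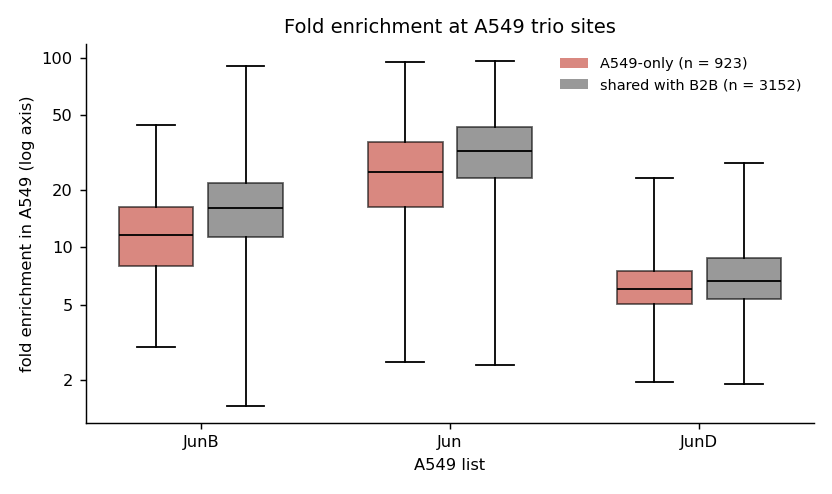
Fold enrichment of JunB, Jun and JunD in A549 (log axis) at the 923 A549-only and the 3152 shared trio sites. Boxes span the quartiles, the line is the median and whiskers reach the lowest and highest site; for each protein the A549-only median was the lower one, and the boxes overlapped widely.

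The 3 proteins shared 1 narrow position at most sites. The median width of a site was 439 bp, between 180 and 7067 bp, and the 3 summits lay within 100 bp of each other at 821 of 923 sites (88.95%). The median distance to the nearest start site was 11.1 kb. The 3 sites just past 1 kb from a start site, at 1004, 1018 and 1047 bp, had Jun fold enrichments of 22.8, 22.9 and 52.0, and the 3 regions just within it, at 985, 973 and 956 bp, had 32.6, 16.6 and 15.0. The 3 sites just past 1 kb from a B2B peak, at 1033, 1041 and 1087 bp, had 33.4, 29.5 and 42.9, and the regions just within it, at 986, 949 and 933 bp, had 2.69, 39.1 and 7.81.

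The B2B lists that removed a site from the A549-only set were of unequal length. Of the 4075 distal trio sites of A549 in bins with a start site, 3136 had a B2B Jun peak within 1 kb, 1692 a B2B JunB peak and 1513 a B2B JunD peak. At 1234 of them the B2B Jun list was the only one with a peak. The B2B lists held 45047 Jun, 8563 JunB and 8597 JunD peaks, against 35602, 28068 and 9639 in A549. An A549-only site is thus a site without a listed B2B peak, which does not show that B2B lacks the protein there.

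To ask whether the sites carried enhancer or promoter features, peaks of H3K27ac (acetylated histone of active enhancers and promoters), Med1 (a subunit of the Mediator complex), RNA polymerase II (pol II) and H3K4me3 (methylated histone of promoters) were overlapped with them. These lists played no part in choosing the sites. Some lists ended before the last chromosome, so each mark was compared on the chromosomes that both lines covered, which were 1 to 12 for H3K27ac, 1 to 14 for Med1, 1 to 19 for pol II and all for H3K4me3. In A549, pol II overlapped 528 of 832 sites (63.5%, 95% interval 60.1 to 66.7), against 29.9% of all distal Jun-family regions of A549. Med1 overlapped 319 of 690 (46.2%, 42.5 to 49.96), against 16.1% of all such regions. H3K4me3 overlapped 314 of 923 (34.0%, 31.0 to 37.1), against 14.6%. H3K27ac overlapped 209 of 637 (32.8%, 29.3 to 36.6), against 14.9%.

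All 4 marks were more frequent at these sites than at A549-only regions with 1 or 2 of the proteins. The difference was 41.2 percentage points for pol II (37.8 to 44.5), 35.0 for Med1 (31.3 to 38.8), 22.1 for H3K4me3 (19.03 to 25.2) and 21.7 for H3K27ac (18.1 to 25.5). The median fold enrichment of Jun in those regions was 7.98, and their median width was 230 bp, beside 439 bp at the A549-only trio sites. The sets thus also differed in strength and in width, and a wider region has more room for an overlap. Against the shared trio sites, pol II was less frequent, by a difference of -6.96 points (-10.67 to -3.34). The differences for H3K27ac (-4.06, -8.14 to 0.17), Med1 (-2.41, -6.62 to 1.82) and H3K4me3 (-0.43, -3.86 to 3.09) did not exclude 0. All 4 differences, pol II included, changed with the processing and with the strength of Jun, as described in the closing section. Where a peak was present, its median fold enrichment was 22.2 for H3K27ac and 13.9 for pol II, beside 18.6 and 13.9 at the shared sites.

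On chromosomes 1 to 12, at least 1 of the 4 marks was present in A549 at 443 of 637 sites (69.5%, 65.9 to 73.0), and all 4 at 108 (17.0%). At shared trio sites these shares were 76.4% and 16.5%, and at A549-only regions with 1 or 2 proteins 28.4% and 3.29%. H3K27ac and Med1 occurred together at 177 sites (27.8%), against 29.8% of shared sites and 5.66% of regions with 1 or 2 proteins. Of the 177, 67 (10.5% of the 637) had no H3K4me3, where the share was 13.1% at shared sites. Pol II without H3K27ac was found at 199 sites (31.2%), and 194 (30.5%) had none of the 4 marks. Shared sites had 34.6% and 23.6%, and regions with 1 or 2 proteins 12.8% and 71.6%.

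In B2B the same positions carried few peaks. B2B pol II overlapped 32 of 832 sites (3.85%, 2.74 to 5.38), against 11.6% of all distal Jun-family regions of A549. B2B Med1 overlapped 60 of 690 (8.70%, 6.82 to 11.0), against 10.6%. B2B H3K27ac overlapped 46 of 637 (7.22%, 5.46 to 9.50), against 8.15%. B2B H3K4me3 overlapped 27 of 923 (2.93%, 2.02 to 4.22), against 3.75%. Apart from pol II, these shares were close to those of all distal Jun-family regions of A549. They were below the shares at the shared trio sites, where B2B pol II reached 32.2%, Med1 27.8%, H3K27ac 22.1% and H3K4me3 8.53%. The differences were -28.4 points for pol II (-30.4 to -26.1), -19.1 for Med1 (-21.7 to -16.2), -14.9 for H3K27ac (-17.4 to -12.1) and -5.61 for H3K4me3 (-6.98 to -4.02). The shared sites were chosen for a B2B Jun-family peak, so this difference compares sites with and without such a peak. At A549-only regions with 1 or 2 proteins, likewise chosen without a B2B Jun-family peak, the B2B shares were lower still. They were 1.36% for pol II, 4.15% for Med1, 2.79% for H3K27ac and 1.90% for H3K4me3, and all 4 differences excluded 0.

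Counted site by site, nearly all marks were listed in A549 alone or in both lines. The sites were chosen for A549 Jun-family peaks and no B2B ones, so the 2 lines did not enter this comparison on equal terms. At the B2B-only trio sites, chosen the other way round, A549 minus B2B was -44.1 points for pol II and -29.2 for Med1. For H3K27ac it was -15.0 points and for H3K4me3 -9.63. Pol II was present in A549 alone at 496 of 832 sites, in both lines at 32, in neither at 304 and in B2B alone at 0. H3K27ac was present in A549 alone at 163 of 637 sites, in both at 46 and in B2B alone at 0. For Med1 the counts were 261, 58 and 2 of 690 sites, and for H3K4me3 they were 287, 27 and 0 of 923. The difference between A549 and B2B over the sites was 59.6 points for pol II (paired interval 56.2 to 62.8), 37.5 for Med1 (33.8 to 41.2), 31.1 for H3K4me3 (28.1 to 34.1) and 25.6 for H3K27ac (22.2 to 29.0). The A549 pol II list held 45938 peaks up to its end on chromosome 20 and the B2B list 25234 on all chromosomes, and with lists cut to the same number of peaks the pol II difference was 47.0 points. An excess in A549 was also found at the shared trio sites. There the difference between the lines was 38.2 points for pol II, 20.9 for Med1, 25.9 for H3K4me3 and 14.8 for H3K27ac.

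**Figure D2:**
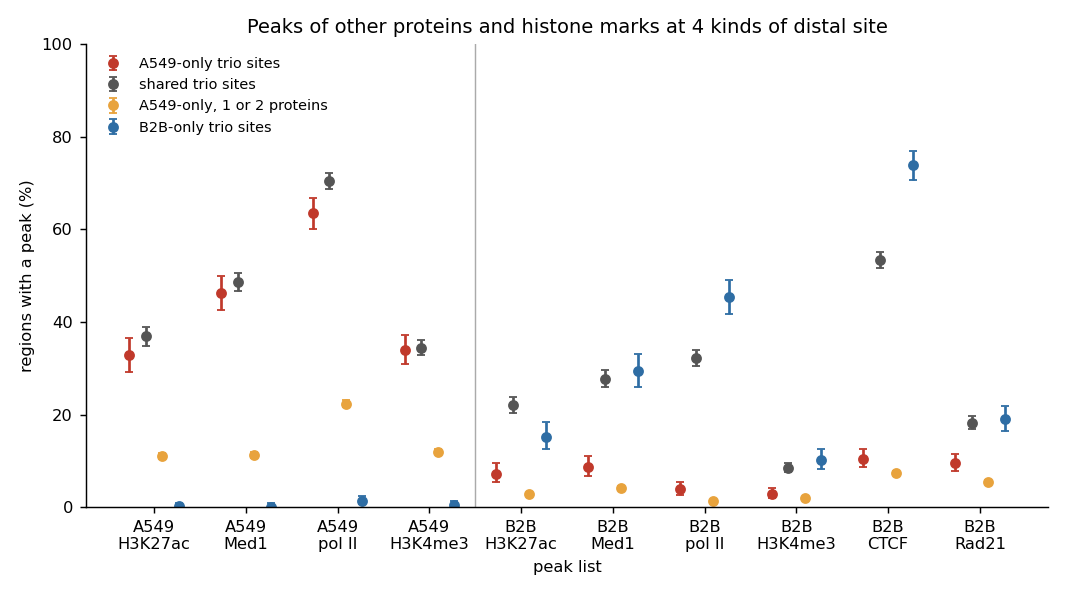
Share of regions (%) that overlap a peak of each A549 and B2B list, for A549-only trio sites, shared trio sites, A549-only regions with 1 or 2 proteins and B2B-only trio sites, with Wilson 95% intervals. At A549-only trio sites the 4 A549 marks lie between 32.8% and 63.5% and the same 4 marks in B2B between 2.93% and 8.70%. At B2B-only trio sites the 4 marks in B2B lie between 10.2% and 45.4%, and the A549 marks at 1.28% or less.

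CTCF and the cohesin subunit Rad21, which together mark insulators and loop anchors, were analysed in B2B only. B2B CTCF overlapped 96 of the 923 A549-only sites (10.4%, 8.59 to 12.5), against 23.7% of all distal Jun-family regions of A549, and B2B Rad21 overlapped 88 (9.53%, 7.80 to 11.6), against 8.69%. At the shared trio sites the shares were 53.5% and 18.3%, and the differences of -43.1 points (-45.6 to -40.3) and -8.74 points (-11.0 to -6.29) excluded 0. At the B2B-only trio sites B2B CTCF reached 73.9%, and Rad21 overlapped 144 of the 758 sites. At A549-only regions with 1 or 2 of the Jun-family proteins, B2B CTCF (7.36%) and Rad21 (5.52%) were less frequent than at the A549-only trio sites. Both proteins were present at 57 A549-only sites (6.18%).

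The marks varied with the strength of Jun at the site. A549-only and shared sites were divided together into quartiles of A549 Jun fold enrichment, at 21.5, 31.0 and 41.6. The A549-only sites were weaker, with 373 of 923 in the lowest quartile and 144 in the highest. In the lowest quartile 48.2% of the A549-only sites on chromosomes 1 to 12 had A549 H3K27ac, and in the highest 18.9% did. At the shared sites the order was the other way, with 35.9% in the lowest and 41.3% in the highest quartile. The difference between A549-only and shared sites was 12.3 points in the lowest quartile (4.37 to 20.2) and -22.4 in the highest (-29.7 to -13.3). A549 Med1 gave 12.2 points in the lowest (4.47 to 19.7) and -23.6 in the highest quartile (-32.6 to -13.8). H3K4me3 gave 7.82 points in the lowest (1.71 to 14.0) and -14.2 in the highest (-21.4 to -5.91). For pol II the difference was 0.28 points in the lowest quartile (-6.16 to 6.51) and -22.5 in the highest (-31.6 to -13.7).

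Nearly all B2B marks at A549-only sites lay at those with little Jun. B2B Med1 overlapped 55 of 248 sites in the lowest quartile (22.2%), 2 of 161 in the second, 3 of 164 in the third and 0 of 117 in the highest (Wilson interval up to 3.18%). B2B H3K27ac overlapped 40 of 224 sites in the lowest quartile (17.9%) and 2 sites in each of the other quartiles. The shared sites had B2B Med1 at 25.3 to 30.3% and B2B H3K27ac at 21.0 to 23.4% in the 4 quartiles. At the A549-only sites of the upper 3 quartiles the B2B marks were therefore nearly absent, while A549 pol II was present at 55.5 to 64.5% of them.

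**Figure D3:**
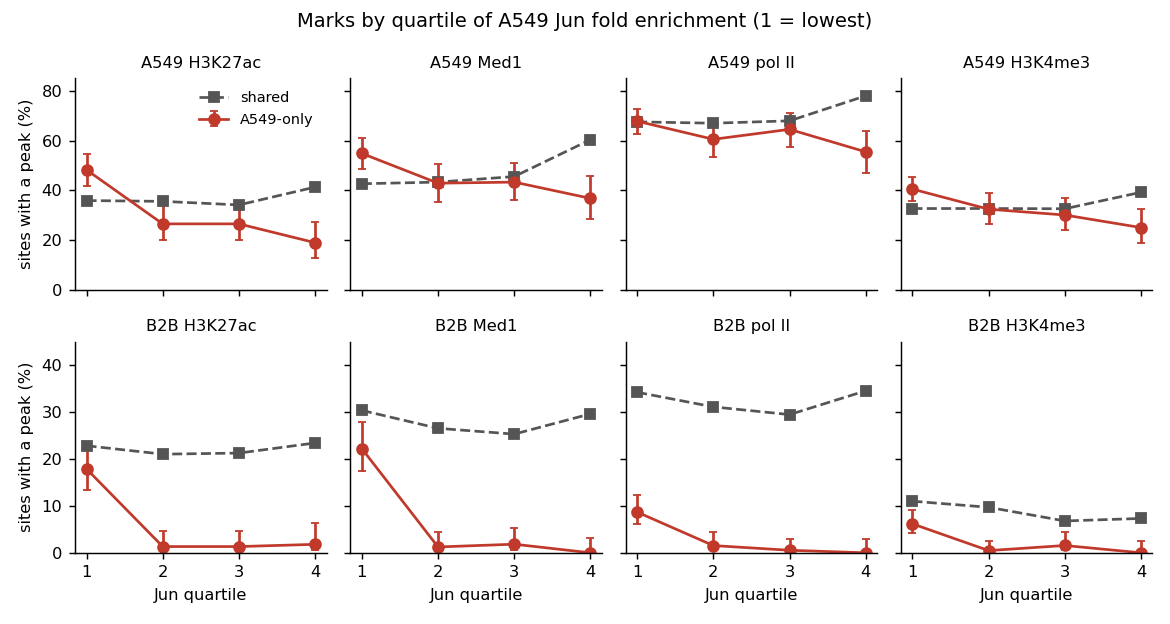
Share of sites (%) with a peak of each mark in A549 (upper row) and B2B (lower row, another scale) by quartile of A549 Jun fold enrichment, for A549-only trio sites (circles, Wilson 95% intervals) and shared trio sites (squares). A549 H3K27ac falls from 48.2% to 18.9% across the quartiles of A549-only sites, and B2B Med1 falls from 22.2% to 0%.

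The AP-1 motif, TGACTCA or its reverse complement TGAGTCA, was found within 50 bp of the Jun summit at 442 of 923 A549-only sites (47.9%, 44.7 to 51.1). The background over all distal Jun-family regions of A549 was 47.1%, and equally wide flanking windows, 2 kb away on either side, held it at 1.57%. At the shared trio sites the share was 65.8% (64.1 to 67.4), a difference of -17.9 points (-21.5 to -14.25). With Jun-family lists cut to equal length the shares were 61.8% and 70.7%, and the difference was -8.99 points (-13.0 to -5.05). The A549-only share was the lower in each quartile of Jun fold enrichment, with differences of -21.9, -14.9, -9.50 and -12.0 points from the lowest to the highest, all of which excluded 0. It was also below that of B2B-only trio sites (53.2%, difference -5.28, -10.05 to -0.48) and above that of A549-only regions with 1 or 2 proteins (40.7%, difference 7.19, 3.87 to 10.5). More than 1 copy was found at 51 A549-only sites (5.53%) and at 11.7% of shared sites. The median distance from the summit to the motif was 13 bp in both sets. The cAMP response element was rare, at 7 sites (0.76%), where the background was 0.578%.

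Of the 481 A549-only sites without the AP-1 word, 292 (60.7%) held a word that differed from it at 1 base within 50 bp of the summit. The share was 65.6% among shared sites without the word, and in the flanking windows of all A549-only sites it was 27.1%.

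The 11 motifs of other factors were counted within 100 bp of the Jun summit on both strands. A forkhead word, TGTTTAC or TGTTTGC, the kind bound by FOXA pioneer factors of the endoderm and the lung, was found at 210 of 923 A549-only sites (22.8%, 20.2 to 25.6). The background was 14.4%, the flanking windows held it at 5.90%, and shared sites at 15.6%. The difference from shared sites was 7.14 points (4.24 to 10.2). At B2B-only trio sites the share was 5.41%, beside 5.54% in their own flanks, and the difference was 17.3 points (14.2 to 20.5). The forkhead share was 21.3% at A549-only sites with an AP-1 word and 24.1% at those without, beside 14.1% and 18.4% at shared sites. An AP-1 or a forkhead word was present at 558 A549-only sites (60.5%) and at 72.1% of shared sites.

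The HNF1 word GTTAATNAT, bound by a homeodomain factor of endoderm-derived epithelia, was found at 27 A549-only sites (2.93%, 2.02 to 4.22; background 1.28%), 1.14% of shared and 0.26% of B2B-only sites. Its difference from shared sites was 1.78 points (0.78 to 3.12). The GATA word AGATAA was at 14.6% (background 12.9%), with a difference of 3.05 points (0.62 to 5.70), but the flanks of the A549-only sites held it at 13.3%. The C/EBP word TTGCNNAA was at 21.7% of A549-only sites (background 16.9%), 10.8% of their flanks and 19.2% of shared sites, and the difference of 2.51 points (-0.40 to 5.58) did not exclude 0.

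TEAD and RUNX words were less frequent at A549-only than at B2B-only sites, and of these TEAD was also less frequent than at shared sites. The TEAD words ACATTCC and GCATTCC, bound by the partners of YAP, were at 53 A549-only sites (5.74%, 4.42 to 7.43; background 10.9%), 7.04% of their flanks, 12.2% of shared and 25.2% of B2B-only sites. The difference from shared sites was -6.44 points (-8.22 to -4.42). The RUNX word TGTGGTT was at 3.79% (background 4.18%), against 4.57% of shared and 15.3% of B2B-only sites, and its difference from B2B-only sites was -11.5 points (-14.4 to -8.73). The E-box CAGCTG was at 8.78% (background 10.8%), against 12.3% of shared sites, a difference of -3.47 points (-5.51 to -1.19). The antioxidant response element core TGACNNNGC of NRF2, whose first bases can overlap the AP-1 word, was at 13.9% (background 13.6%) and 16.0% of shared sites. The ETS word CCGGAA (3.03%, background 2.28%), the NF-kB word GGGANTTTC (0.33%, background 0.799%) and the KLF word CCCCACCC (3.25%, background 2.9%) differed from shared sites by less than 1 point. For these 3, the NRF2 word and RUNX, the interval of the difference from shared sites included 0 within 100 bp.

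**Figure D4:**
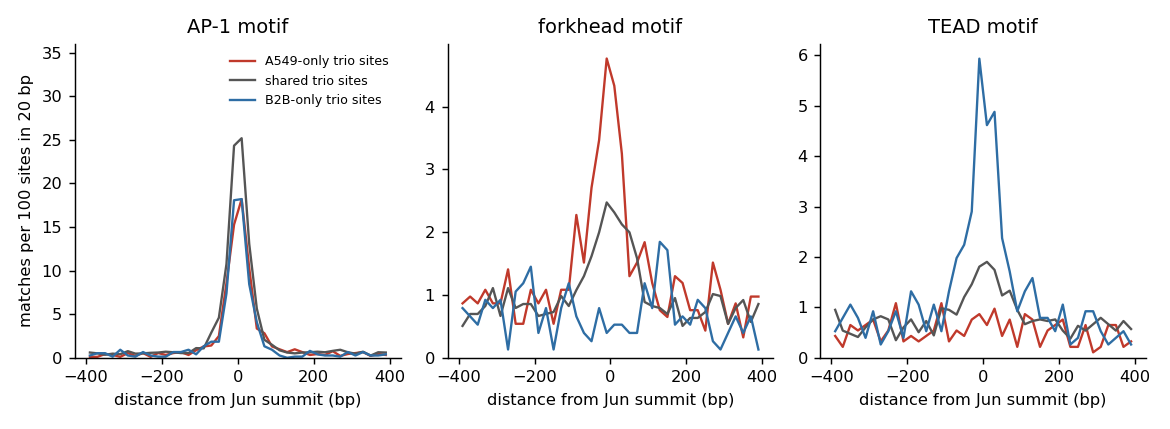
Matches of the AP-1, forkhead and TEAD words per 100 sites in bins of 20 bp against the distance from the Jun summit (bp), on separate vertical scales, for A549-only, shared and B2B-only trio sites. All 3 sets peak for AP-1, the A549-only and shared sites peak for forkhead, with the A549-only peak the higher, and the B2B-only and shared sites peak for TEAD, where the A549-only sites stay near the level of their flanks.

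**Figure D5:**
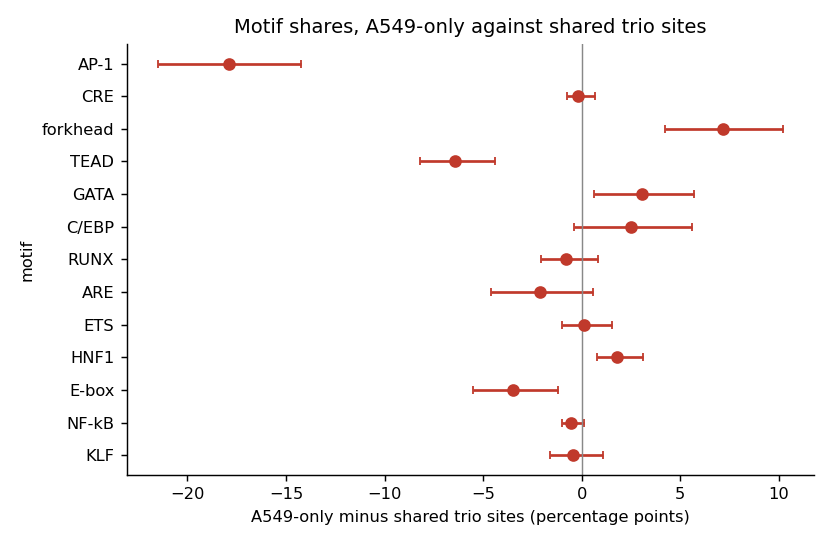
Difference in motif share between A549-only and shared trio sites in percentage points, with Newcombe 95% intervals, for the 13 motifs counted. AP-1 lies at -17.9 and TEAD at -6.44, and forkhead lies at 7.14.

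The marks differed between A549-only sites with and without the AP-1 word. A549 Med1 was at 56.7% of the sites without it and 35.3% of those with it, a difference of 21.4 points (14.0 to 28.4). Pol II was at 70.8% and 55.9% (difference 14.9, 8.34 to 21.2), H3K27ac at 39.2% and 26.0% (13.2, 5.96 to 20.3), and H3K4me3 at 39.9% and 27.6% (12.3, 6.21 to 18.3). The B2B lists showed the same direction, with B2B Med1 at 15.0% and 2.08%, B2B CTCF at 16.0% and 4.30% and B2B Rad21 at 14.8% and 3.85%. At shared sites the Med1 difference was 11.1 points (6.81 to 15.3) and the H3K27ac difference 2.26 points (-1.98 to 6.56). Whether the contrast was larger at A549-only than at shared sites was not tested. A549-only sites without the AP-1 word also had less Jun (median fold enrichment 21.9 against 28.0) and less JunB (9.11 against 14.4). The contrast was not examined at equal Jun fold enrichment. Sites with a forkhead word also carried the A549 marks less often. Of those, 24.2% had A549 H3K27ac, 33.5% Med1 and 55.7% pol II, against 35.5%, 50.3% and 65.8% of the sites without it, and the differences of -11.4, -16.8 and -10.1 points excluded 0. B2B Med1 was at 3 of 167 forkhead sites (1.80%).

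A minority of the sites stood apart in sequence and in the order of the 3 fold enrichments. JunB was more enriched than Jun at 112 of the 923 sites. All 10 sites that held 3 TTAGGG telomere repeats in a row were among them, and 12 of the 12943 A549-only regions with 1 or 2 proteins held such a run, while no shared or B2B-only trio site did. The tRNA B box word GTTCGANNC, part of the internal promoter of tRNA genes, was found in 46 A549-only sites (4.98%), in 2.70% of shared and 1.06% of B2B-only sites, and in 168 of the 12943 A549-only regions with 1 or 2 proteins. These 2 words were looked for after the data were seen. Whether the 46 A549-only sites with a B box lie at tRNA genes was not tested. A549 H3K27ac overlapped 23 of 31 B-box sites (74.2%) and B2B Med1 13 of 31 (41.9%). At the telomere-repeat sites A549 H3K27ac overlapped 7 of 7, A549 pol II 8 of 8, and Med1 8 of 8 in A549 and 8 of 8 in B2B. A549 H3K4me3 overlapped 1 of 10 of them, B2B CTCF 8 of 10, B2B H3K27ac 0 of 7, B2B pol II 0 of 8, and B2B H3K4me3 and Rad21 0 of 10 each. The mark differences between sites with and without the AP-1 word were 18.6 points for A549 Med1 (11.0 to 25.9) and 9.65 for A549 H3K27ac (2.32 to 16.8) once these sites were left out.

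Near the ends of the assembled chromosomes, at 9891 to 11056 bp from an end, 9 sites were found, with JunB fold enrichments between 7.23 and 26.8 and Jun fold enrichments between 2.49 and 5.31. The site on chromosome 22, at chr22:50807781-50808577, had 26.8 for JunB, 2.89 for Jun and 3.14 for JunD. Reads from such repeats can belong to many places in the genome, so the position of these peaks is uncertain.

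The densest group of sites lay on chromosome 1, where 9 sites were found between chr1:161443107-161612826 (169.7 kb). All 9 held a tRNA B box and none an AP-1 word. Whether these sites lie at tRNA genes was not tested. They are distal only in lying more than 1 kb from an annotated start site. Their fold enrichments were 4.09 to 20.1 for JunB, 3.64 to 13.6 for Jun and 3.48 to 7.45 for JunD. A549 H3K27ac, Med1 and H3K4me3 overlapped all 9 and pol II 8, and in B2B Med1 overlapped 8 and Rad21 all 9. A wide mark peak could cover several of these sites. Whether the marks at these sites belong to tRNA promoters or to enhancers was not tested. The 6 A549-only sites with the highest A549 H3K27ac fold enrichment among those with A549 Med1 and no B2B H3K27ac within 1 kb were all from this group, with values of 89.5 to 115.6. The centre of 1 of them is printed to show the B box, GAATCGAAC on this strand, in capitals.
FCGR2A, chr1:161463030-161463130, + strand: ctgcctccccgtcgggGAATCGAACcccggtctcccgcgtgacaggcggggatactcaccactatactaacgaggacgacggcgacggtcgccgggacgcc

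By position the A549-only sites lay less in genes than the shared sites. The Jun summit fell in an intron of a protein-coding gene at 359 sites (38.9%), between genes at 371 (40.2%), in an intron of another gene at 156 (16.9%) and in an exon at 37 (4.01%). The difference from shared sites was -9.07 points for introns of protein-coding genes (-12.6 to -5.45) and 5.26 points for sites between genes (1.72 to 8.86). A549-only sites made up 22.7% of the distal trio sites of A549, from 14.3% on chromosome 17 to 35.0% on chromosome 19. They were scattered, with a median of 560 kb to the next, and 161 (17.4%) lay within 50 kb of another.

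Genes with A549-only sites nearby were counted within 100 kb of a start site. Such a site was found at 1612 of 20007 protein-coding genes (8.06%), a shared site at 24.4% and a B2B-only site at 5.10%. Distance does not show which gene a site acts on. Of the genes with most sites, HSPA6 (9 sites), FCGR3A (7) and CFAP126 (7) all counted the group on chromosome 1. PDE4D (chr5:58969038-60522120) had 6 sites, all in its introns, with Jun fold enrichments of 31.5, 20.9, 34.1, 8.37, 24.2 and 58.2. A549 pol II overlapped 5 of these, A549 Med1 4 and A549 H3K27ac 2, and no peak of any B2B list overlapped them. SLC45A4 followed with 5 sites.

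KYNU, which encodes kynureninase of tryptophan breakdown, had 4 sites 2.79 to 13.7 kb from its start, at chr2:142863542-142874865. Their Jun fold enrichments were 17.9, 12.2, 31.8 and 49.6, all 4 overlapped A549 pol II, 3 of them A549 Med1, and no B2B peak was found at any. ID1, an inhibitor of basic helix-loop-helix factors, had 4 sites within 9.29 kb of its start, with Jun fold enrichments of 5.61 to 16.8 and no AP-1 word, and 3 of these overlapped B2B Rad21 peaks. The 4 sites counted for MYH14, a non-muscle myosin heavy chain, lay 7.08 to 54.1 kb from its start. Their Jun fold enrichments were 3.85 to 27.9. The 4 counted for SULT2A1, a steroid sulfotransferase, lay 31.9 to 71.1 kb from its start, with 3.55 to 7.30 for Jun. The 4 sites counted for PLS3, an actin bundling protein, lay 87.6 to 96.5 kb from its start. JunB (5.44 to 9.84) was above Jun (3.47 to 6.52) at all 4, each with A549 H3K4me3. No other A549 mark list reached this chromosome, X. HAVCR1, a cell surface receptor of injured epithelium, had 3 sites, and RTN4RL2, a receptor of the Nogo family, had 3.

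Against the 8.06% of all protein-coding genes, the oncogene list of the study had an A549-only site within 100 kb at 66 of 612 matched genes (10.8%, 8.57 to 13.5), and a shared site at 190 of them, where 24.4% of all protein-coding genes had a shared site. TBX3, EPAS1 and ARID1B of this list had 2 sites each. EPAS1 encodes the hypoxia factor HIF-2 alpha.

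The other lists hold 15 to 27 genes each, so their intervals are wide. Of the Jun, Fos, ATF and Maf genes, 3 of 20 had an A549-only site (15%, 5.24 to 36.04, against 8.06% of all genes). A shared site was near 12 of 20 (60%, against 24.4% of all genes). The 3 genes with an A549-only site were FOSB with 2 and FOS and JUN with 1 each, at 24.1, 21.6 and 32.1 kb. The site near FOS, at chr14:75301781-75302439, held an AP-1 word, had fold enrichments of 13.0 for JunB and 7.26 for Jun and overlapped A549 Med1 and pol II. The A549 H3K27ac list ended before this chromosome. Among ERBB receptors and ligands, 1 of 15 had a site (6.67%, against 8.06% of all genes). It was EGFR at 22.7 kb, where JunB reached 21.0 and Jun 17.2. Among other growth factor receptors only INSR had a site (1 of 23, 4.35%). Among MAPK feedback genes SPRED2 and DUSP16 did (2 of 19), which encode brakes on ERK signalling and on JNK and other MAP kinases. The feedback genes stood at 10.5% for A549-only sites (2.94 to 31.4), against 8.06% of all genes, and at 68.4% for shared sites, against 24.4%. Within 200 kb the A549-only count rose to 8 of 19 (42.1%, 23.1 to 63.7), against 14.1% of all genes.

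Among targets of NRF2, the activator of antioxidant and detoxification genes, 7 of 27 had an A549-only site (25.9%, 13.2 to 44.7), against 8.06% of all protein-coding genes. A shared site was near 14 of 27 (51.9%), against 24.4% of all genes, and a B2B-only site near 1 of 27, against 5.10%. AKR1B10, an aldo-keto reductase, had 2, and its nearer site at chr7:134515750-134516330 had fold enrichments of 19.5 for JunB and 31.4 for Jun and held an AP-1 word. MGST1, a microsomal glutathione transferase, had a site 1.19 kb from a start site at chr12:16349092-16349553 with a Jun fold enrichment of 39.9. It overlapped A549 peaks of H3K27ac (80.8), Med1 (41.6), pol II (105.2) and H3K4me3 (25.5) and no peak of any B2B list. The site 3.82 kb from a start of TXNRD1, thioredoxin reductase, had 18.2 for Jun and overlapped the 4 marks in A549 and, in B2B, H3K4me3 alone. The site 4.10 kb from a start of FTH1, the ferritin heavy chain, had 16.5 for Jun and overlapped B2B H3K27ac, Med1, CTCF and Rad21 as well.

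Of the lung and endoderm lineage regulators, 5 of 27 had a site (18.5%, 8.18 to 36.7, against 8.06% of all genes) and 11 of 27 a shared site (40.7%, against 24.4%). Within 50 kb the A549-only count was 3 of 27 (11.1%, against 4.52%). FOXP1, CEBPB, ELF3 and ID2 were among the 5. The site near ELF3, an epithelial ETS factor, had 11.6 for Jun and A549 H3K27ac of 44.4, and that near CEBPB, on chromosome 20, had 38.0 for Jun. The remaining lists each had 1 to 3 genes, and the interval of each held the 8.06% of all genes. These lists were epithelial adhesion and keratin genes (2 of 21, 9.52%, TJP1 and EPCAM) and mesenchymal genes (3 of 21, 14.3%, SPARC, TGFBI and SNAI1). YAP and TEAD targets (1 of 20, 5%, AMOTL1) and metalloproteinase and urokinase genes (1 of 20, 5%, PLAUR) were lower. Cytokines and chemokines had 3 of 21 (14.3%, LIF, IL6 and IL32).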

How the data were processed

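According to the study's methods and the submitters' processing notes, reads were aligned to hg38 (Bowtie2 2.4.4), duplicates were removed, replicates were merged and scaled by CPM (SAMtools 1.13), and peaks were called by the authors (MACS2 2.2.7.1). The control given to the caller was not given in the sources used here, nor was the read depth. For each peak the authors deposited a score, a fold enrichment (the ratio of pileup to local background) and −log10 values of p and q, with no −log10 q below 2.

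Peaks of the 16 lists were joined and overlapped by at least 1 bp (Python 3.11.15, NumPy 2.4.6, pandas 2.3.3). A region took the strongest peak of each protein. Start sites, exons and genes came from GENCODE release 44. Of the lists, 4 ended early (A549 H3K27ac on chromosome 13, Med1 of both lines on 15 and A549 pol II on 20), and only chromosomes covered whole in both lines were used. This was seen only in the files. Shares have Wilson 95% intervals and differences Newcombe 95% intervals from SciPy 1.17.1 quantiles, since pooled lists allow no test across samples. Differences between lines over the same sites used the paired form. All cover counting error only, and neighbouring sites under 1 peak are not independent. Sequence was read with pysam 0.24.0, and plots were drawn with Matplotlib 3.10.9. Oncogene symbols matched in 612 of 618 cases. Interval functions were tested on simulated data and equalled bedtools in 5 counts. On 2000 simulated sets 94.8% of the Newcombe intervals held the known difference.

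The sites, gene lists and motifs were chosen with earlier results of these data known. Named sites were the 6 with the highest weakest-protein fold enrichment and an AP-1 word, the 6 highest in A549 H3K27ac with Med1 and no B2B H3K27ac, the 3 highest in Jun without a motif, and the 3 on each side of each limit. Sites on 1 chromosome were left out of the printed sequences, and 2 of the first 6 sites and 1 gene are not reported here. Named genes were the 12 with most sites within 100 kb and up to 4 of each list in the same order. The B box, telomere and 1-mismatch words and the 4 AP-1 and forkhead sites were added after the data were seen.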

Additional observations from a re-analysis of the deposited data

How the results depend on the processing

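No paired analysis was possible because each list pools the 2 replicates of its group, so that no value exists per replicate; for the same reason no replicate could be left out. The lists have no depth or replicate spread, and an absent peak shows only that none was listed. Of 311 recomputed values, 269 kept their direction and their side of 0 or stayed near their value. The number of sites lay between 706 (Jun-family lists of equal length) and 1120 (1 start site per gene). The differences between A549 and B2B over the sites, the AP-1 difference (-21.99 with 1 start site per gene to -8.99 with Jun-family lists of equal length) and the forkhead difference (5.72 to 8.71) from shared sites excluded 0 throughout. The differences between the lines are a description, since the sites were chosen for Jun-family peaks in A549 and none in B2B.

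The differences in A549 marks between A549-only and shared sites depended on the processing, and the cause was not tested. By Jun quartile, from the lowest up, H3K27ac gave 12.3 and -9.06 points and -22.4 in the highest, Med1 12.2 and -23.6, H3K4me3 7.82 and -14.2, and pol II 0.28, -6.48 and -3.42 in the lower 3. With a peak over the Jun summit, H3K27ac gave 0.74 and H3K4me3 6.12. With 1 start site per gene, H3K27ac gave 1.21, Med1 1.77 and H3K4me3 4.34. H3K27ac excluded 0 up to the end of the shorter list (-4.34) and over 3 kb from a start site (-5.73). H3K27ac and Med1 both excluded 0 with Jun-family peaks of −log10 q of at least 5 (-7.10 and -4.68), no B2B peak within 5 kb (-6.34 and -5.66), summits within 100 bp (-5.86 and -4.54) and Jun-family lists of equal length (-8.14 and -6.98). Without B-box and telomere-repeat sites, H3K27ac gave -6.24. H3K4me3 turned positive with peaks within 1 kb (1.24), mark lists of equal length (2.03), no overlapping B2B peak (0.13) and no B2B peak within 5 kb (0.35).

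For B2B, the lowest Jun quartile gave -4.95 for H3K27ac and -1.83 for Rad21, and 1 start site per gene gave -0.47 for H3K4me3 and -1.23 for Rad21, none of which excluded 0. The KLF difference within 50 bp was 0.28. Within 200 bp the differences for RUNX (-2.68, -4.44 to -0.67) and the NRF2 word (-3.20, -6.03 to -0.19) excluded 0. Other rules of membership applied to marks and motifs, equal mark lists, quartiles for B2B and AP-1, and the removal of B-box and telomere-repeat sites were chosen after the data were seen. At 50 and 200 kb the oncogene list had A549-only sites at 5.72% and 16.3% of genes, where all protein-coding genes had 4.52% and 14.1%. The feedback list rose to 42.1% at 200 kb, and the mesenchymal and cytokine lists were each at 4.76% at 50 kb, against 14.3% at 100 kb.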
